A study of Mus musculus with 13 samples.

Results

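The genes described here are 10 markers of adipose fibroblasts and adipocyte progenitors, namely Pi16, Dpp4, Cd55, Pdgfra, Cd34, Clec3b, Gsn, Dpt, Ly6a and Smoc2, out of 42416 Ensembl identifiers counted in interscapular brown adipose tissue (iBAT). They were listed by name and matched to identifiers by symbol, and the list was drawn up after the group had been seen higher in one of the study's groups, so their difference between the groups is given as a description. No p-value is given for any of them in this contrast, and counts of calls are set beside those of all genes with nothing read from them. Whole-tissue RNA was sequenced from 13 mice, with 1 library per mouse. Of these, 8 libraries carry the label iFAXLKO, for mice with floxed Axl on both alleles and a Cre transgene, and 5 the label WT, for mice with the same floxed Axl and no Cre. Both groups ate a high-fat diet (HFD), and both were housed at room temperature, with tamoxifen repeated at intervals of 3 weeks. The Cre is CreERT2 in a bacterial artificial chromosome that drives it from Adipoq, a gene of adipocytes. The labels give neither age nor sex. The reporting summary of the study states that female mice served for the tissue-specific knockouts. Its methods give the age at the first tamoxifen dose but not at tissue collection. The comparison asks how inducible deletion of Axl in adipocytes changes the transcriptome of iBAT on HFD.

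Adipocytes arise from mesenchymal progenitors that lie between the mature fat cells, around vessels and in the septa of the depot. PDGFRA marks these stromal cells broadly. A subset in the interstitium carries PI16, DPP4 and CD55 and is placed early in the adipocyte lineage, whereas other markers, such as CD34 and the antigen SCA-1 that Ly6a encodes, are shared more widely and also occur on endothelial cells. Following this, Pi16, Dpp4 and Cd55 were taken as the 3 Pi16/Dpp4-type markers and the remaining 7 genes as other progenitor markers. In whole tissue, more cells of a type and more RNA per cell cannot be told apart.

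Library totals were 22437277 to 32595083 counts, and values are CPM (counts scaled to a common library total) after scaling with TMM factors. All 10 genes exceeded 1 CPM in at least 5 libraries and entered the fit across 13360 genes. Axl (ENSMUSG00000002602, chromosome 7, 25757273 to 25788705, GRCm38), the targeted receptor, was at 26.5 at the lowest, 31.6 at the median and 43.9 CPM at the highest in the libraries labelled iFAXLKO. In the WT libraries, in replicate order, it was at 28.4, 26.9, 26.3, 33.8 and 23.5 CPM. Axl was thus not lower where the label gives its deletion (log2 fold change 0.25, SE 0.13, edgeR adjusted p 0.699), and directions here rest on the labels alone. As for the markers of the labelled tissue, Ucp1, the uncoupling protein of brown adipocytes, was at 5600 ± 1120 CPM (SD, n = 8) in the libraries labelled iFAXLKO and at 6370 ± 914 CPM (SD, n = 5) in WT. The 8 skeletal muscle markers summed to between 2.43 and 3970 CPM in the former and between 16 and 2710 CPM in the latter, a wide range within both groups.

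The 3 Pi16/Dpp4-type genes lie on chromosomes 17 (Pi16), 2 (Dpp4) and 1 (Cd55), and the markers as a whole on chromosomes 1, 2, 5, 9, 15 and 17. Because several of them varied together between mice (below), the sequences before their start sites are shown. In the table of RefSeq promoters used here (GRCm38.p6) 7 of the 10 genes were matched, and the windows of Pi16, Dpp4 and Cd55 are printed with that of Dpt, which with Clec3b was the marker that varied most like Pi16. Each is the 250 bases before the start, read 5′ to 3′ on the gene's own strand. The windows are chr17:29318632-29318881 on the plus strand for Pi16, chr2:62412232-62412481 on the minus strand for Dpp4, chr1:130462745-130462994 on the minus strand for Cd55 and chr1:164796413-164796662 on the plus strand for Dpt. The Pi16 window lies inside the gene as GENCODE M21 draws it, since a longer transcript starts upstream. Capitals mark the motifs searched on both strands.
Pi16: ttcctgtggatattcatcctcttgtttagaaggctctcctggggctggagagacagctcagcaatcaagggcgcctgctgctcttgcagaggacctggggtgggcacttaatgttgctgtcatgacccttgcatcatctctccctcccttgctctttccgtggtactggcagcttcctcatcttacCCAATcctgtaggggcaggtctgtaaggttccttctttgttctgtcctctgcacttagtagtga
Dpp4: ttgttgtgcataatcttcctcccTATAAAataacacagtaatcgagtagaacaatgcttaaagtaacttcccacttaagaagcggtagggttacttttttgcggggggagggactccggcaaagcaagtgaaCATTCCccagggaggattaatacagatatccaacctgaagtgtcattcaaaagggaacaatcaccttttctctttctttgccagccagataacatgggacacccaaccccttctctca
Cd55: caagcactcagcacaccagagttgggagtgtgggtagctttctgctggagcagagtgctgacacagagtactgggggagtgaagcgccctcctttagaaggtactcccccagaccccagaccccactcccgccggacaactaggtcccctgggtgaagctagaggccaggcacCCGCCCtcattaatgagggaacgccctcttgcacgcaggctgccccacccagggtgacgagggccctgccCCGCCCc
Dpt: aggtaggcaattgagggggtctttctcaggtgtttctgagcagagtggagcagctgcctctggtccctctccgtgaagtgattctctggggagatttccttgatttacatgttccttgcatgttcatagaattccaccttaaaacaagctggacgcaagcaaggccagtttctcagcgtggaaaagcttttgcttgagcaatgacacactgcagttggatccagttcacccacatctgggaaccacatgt

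In these windows Pi16 holds a CCAAT box (CCAAT) 64 bases before the start. Dpp4 holds the letters TATAAA 227 bases before the start and a TEAD motif (GGAATG), read on the other strand, 118 bases before it. Cd55 holds 2 GC boxes (GGGCGG), 77 and 7 bases before the start, both on the other strand. None of the 5 motifs was found in the Dpt window. Over all 32851 promoter windows of the same length, 33.8% hold CCAAT, 32.7% GGGCGG, 12.6% GGAATG, 12.4% TATAAA and 6.75% the AP-1 motif TGANTCA, which was in none of the 9 windows of the markers. The motifs do not overlap each other in the 4 windows printed. No motif was shared by the 3 Pi16/Dpp4-type genes, and their windows differed in base composition, with 52.4% G and C for Pi16, 43.6% for Dpp4 and 64.0% for Cd55, where the median of all windows was 52.4%.

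The 10 markers spanned a wide range of levels. To compare genes, CPM were divided by the length of the union of a gene's exons in kb. Gsn, which encodes the actin-severing protein gelsolin and is not restricted to fibroblasts, had the highest level over all 13 libraries, with 333 ± 55.1 CPM per kb (SD, n = 13), followed by Ly6a with 57.9 ± 10.7 CPM per kb. Dpt, which encodes the matrix protein dermatopontin, had 26.0 ± 5.45 CPM per kb and Clec3b, which encodes the plasminogen-binding protein tetranectin, 23.4 ± 5.86 CPM per kb. Lower down the order came Smoc2, a matricellular protein of the SPARC family, with 5.36 ± 1.02 CPM per kb, and Cd34, a sialomucin, with 4.20 ± 1.56 CPM per kb. Pi16, a secreted peptidase inhibitor of the CAP family, had 3.25 ± 1.23 CPM per kb and Pdgfra, the receptor for PDGF-A and other PDGF dimers, 1.95 ± 0.454 CPM per kb. Cd55, a membrane protein that limits complement, had 1.18 ± 0.194 CPM per kb and Dpp4, a surface protease that trims dipeptides from peptide hormones and chemokines, 0.263 ± 0.0931 CPM per kb. The Pi16/Dpp4-type genes thus took ranks 7, 9 and 10.

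Each of the 9 pairs of neighbours in this order passed an adjusted exact p of 0.05 (paired sign-flip test on log2 CPM per kb, 2-sided, adjusted over the 9 pairs). The closest pair was Dpt over Clec3b, with a mean log2 difference of 0.17 ± 0.20 (SD, n = 13) and 9 of 13 libraries in that direction (adjusted exact p 0.011). For this pair, and for Smoc2 over Cd34 (0.40 ± 0.42, adjusted exact p 0.00879), the mean difference was smaller than its SD between libraries. The clearest gaps, with 13 of 13 libraries in one direction, were those between Gsn and Ly6a, Ly6a and Dpt, Clec3b and Smoc2, and Cd55 and Dpp4 (adjusted exact p 0.000549, from 0.000244, the smallest the test can give). With the longest transcript in place of all exons Cd34 came above Smoc2 by 0.04 ± 0.42 (SD, n = 13) on the log2 scale (adjusted exact p 0.771), so the order of these 2 genes rests on the length chosen. In the WT libraries alone the order was the same, but 5 libraries cannot go below an exact p of 0.0625.

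Pi16 (ENSMUSG00000024011, chromosome 17, 29317680.0 to 29330593.0, plus strand) ran from 17.4 over a median of 23.2 to 37.6 CPM in the libraries labelled iFAXLKO. In WT it was at 15.4, 24.6, 8.56, 15.9 and 9.82 CPM. The WT mean was below all 8 libraries labelled iFAXLKO, yet the groups overlapped through WT replicate 2, which was above 4 of them. The means were 24.3 ± 6.59 CPM (SD, n = 8) and 14.8 ± 6.33 CPM (SD, n = 5). On the log2 scale the fold change was 0.71 (SE 0.25), with 0.59 without WT replicate 3 and 0.97 without WT replicate 2 as the lowest and highest values when 1 library was left out.

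Dpp4 (ENSMUSG00000035000, chromosome 2, 62330073.0 to 62412231.0, minus strand) was the lowest of the markers, from 1.34 over 1.85 to 2.55 CPM in the libraries labelled iFAXLKO. In WT it was at 2.16, 1.04, 0.853, 1.30 and 0.759 CPM. The groups overlapped through WT replicate 1, while the other 4 WT libraries were lower than all 8 labelled iFAXLKO. The log2 fold change was 0.66 (SE 0.25), with 0.53 without WT replicate 5 and 0.97 without WT replicate 1 at the ends of its leave-one-out range. That library also held the most lymphocyte transcripts, with the 5 lymphocyte markers (Cd3e, Cd79a, Ms4a1, Cd4 and Cd8a) summing to 15.9 CPM against 0.956 to 1.80 CPM in the other WT libraries and 1.41 to 5.70 CPM in those labelled iFAXLKO. In WT replicate 1 the B cell genes Cd79a and Ms4a1 were at 5.24 and 3.57 CPM, and Cd3e, Cd4 and Cd8a at 2.45, 3.31 and 1.34 CPM. T cells carry DPP4 as CD26, and the part of these cells in the Dpp4 value was not tested.

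Cd55 (ENSMUSG00000026399, chromosome 1, 130439027.0 to 130462744.0, minus strand) did not separate the groups. It ran from 4.71 over 5.83 to 7.54 CPM in the libraries labelled iFAXLKO and was at 6.55, 6.13, 3.91, 5.62 and 4.51 CPM in WT. Only iFAXLKO replicate 2 lay above the highest WT library, which was again WT replicate 1. The log2 fold change was 0.16 (SE 0.14), with 0.24 without WT replicate 1 and 0.08 without WT replicate 3, and the means of log2 CPM differed by -0.06 in the lower and 0.31 in the upper range of library numbers. The lower range is the run of consecutive library numbers in the labels, with 4 libraries labelled iFAXLKO and 2 WT, and the upper holds the remaining 4 and 3. Between these ranges the difference also moved for Pi16 (0.21 and 1.17) and Dpp4 (0.32 and 0.96). What the numbers stand for is not stated in the labels. Its paralog Cd55b, with which it might share reads, held at most 1 count in any library.

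Of the 7 other markers, Smoc2 and Gsn had the most libraries labelled iFAXLKO above the highest WT library, 7 of 8 each. Smoc2 (ENSMUSG00000023886, chromosome 17, 14279506.0 to 14404790.0, plus strand) ran from 34.9 over 41.2 to 48.2 CPM in the libraries labelled iFAXLKO and was at 27.6, 31.3, 27.2, 36.9 and 28.0 CPM in WT. The 1 WT library inside the other group's range was replicate 4, and 7 of 8 libraries labelled iFAXLKO lay above it. For Smoc2 the log2 fold change was 0.46 (SE 0.09), with a range of 0.43 to 0.55 when 1 library was left out.

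Gsn (ENSMUSG00000026879, chromosome 2, 35256380.0 to 35307892.0, plus strand) ran from 1020 over 1170 to 1320 CPM in the libraries labelled iFAXLKO and was at 852, 1030, 754, 1060 and 757 CPM in WT. WT replicates 2 and 4 reached into the range of the other group, and 7 of 8 libraries labelled iFAXLKO lay above all 5 WT libraries. Its log2 fold change was 0.37 (SE 0.10), and the difference was 0.35 in the lower and 0.39 in the upper range of library numbers.

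Cd34 (ENSMUSG00000016494, chromosome 1, 194938819.0 to 194961279.0, plus strand) had the largest coefficient of variation of the markers within the libraries labelled iFAXLKO, 34.1%, and ran from 26.2 over 29.6 to 61.2 CPM, with the top value in replicate 7. In WT it was at 22.5, 23.1, 22.1, 31.1 and 17.7 CPM. WT replicate 4 alone overlapped the other group. Cd34 had a log2 fold change of 0.60 (SE 0.21), and from 0.44 without iFAXLKO replicate 7 to 0.72 over the fits that leave out 1 library. Among the 7 endothelial markers, cells that also carry CD34, 6 had a positive log2 fold change and the median was 0.15. Their summed level was 777 to 1210 CPM (median 907) in the libraries labelled iFAXLKO and 708 to 958 CPM (median 938) in WT. None of the 7 was at 0, and the part of endothelial cells in the Cd34 value was not tested.

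Clec3b (ENSMUSG00000025784, chromosome 9, 123150946.0 to 123157432.0, plus strand) ran from 22.8 over 25 to 35.7 CPM in the libraries labelled iFAXLKO and was at 16.9, 25.3, 15.6, 20.9 and 12.9 CPM in WT. As with Pi16, WT replicate 2 was the 1 library that overlapped. Its log2 fold change was 0.52 (SE 0.15). Dpt (ENSMUSG00000026574, chromosome 1, 164796644.0 to 164824266.0, plus strand) ran from 39.1 over 47.5 to 61.2 CPM and was at 39.2, 51.4, 26.6, 40.7 and 32.2 CPM in WT, with a log2 fold change of 0.37 (SE 0.14). Here 3 WT libraries, replicates 1, 2 and 4, lay inside the range of the other group. In the lower and upper ranges of library numbers the difference was 0.32 and 0.69 for Clec3b and 0.14 and 0.55 for Dpt.

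Pdgfra (ENSMUSG00000029231, chromosome 5, 75152292.0 to 75198215.0, plus strand), the most commonly used marker of the whole stromal population, ran from 16.4 over 20.8 to 28.7 CPM in the libraries labelled iFAXLKO. In WT it was at 16.6, 10.5, 15.8, 22.7 and 16.2 CPM. WT replicate 2, which was highest of its group for Pi16 and Clec3b, was lowest for Pdgfra. The groups overlapped through WT replicates 1 and 4, with 2 of 8 libraries labelled iFAXLKO higher than the latter. Pdgfra had a log2 fold change of 0.40 (SE 0.16), with 0.27 without WT replicate 2, 0.54 without WT replicate 4 and 0.23 in limma-voom with sample quality weights. The difference was 0.73 in the lower and 0.20 in the upper range of library numbers.

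Ly6a (ENSMUSG00000075602, chromosome 15, 74994877.0 to 74998031.0, minus strand) was the least different of the 10 together with Cd55. It ran from 51.8 over 72.5 to 92.9 CPM in the libraries labelled iFAXLKO and was at 56.5, 71.7, 74.7, 73.6 and 48.6 CPM in WT, so that 4 of 5 WT libraries lay inside the other group's range. The log2 fold change was 0.16 (SE 0.14), 0.07 without WT replicate 5 and 0.23 without WT replicate 3. Of the related Ly6 genes that might share reads with it, Ly6c1 had a mean of 120 CPM in the libraries labelled iFAXLKO and 109 CPM in WT (log2 fold change 0.14, SE 0.17), Ly6e 138 and 127 CPM (0.12, SE 0.11), and Ly6c2 at most 14 counts in a library.

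**Figure D1:**
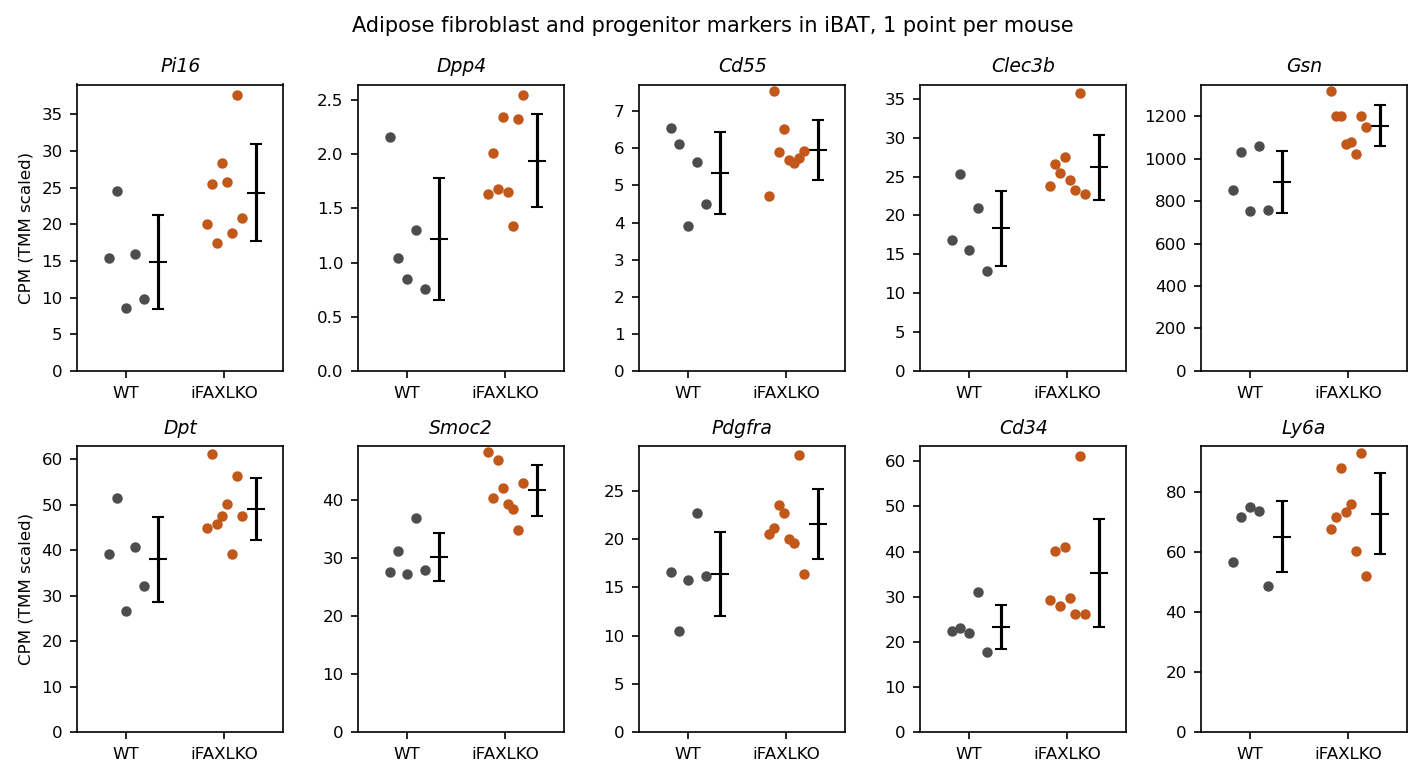
Level of each marker in CPM (vertical axis, from 0, a separate scale for each gene) in the 5 WT and 8 iFAXLKO-labelled libraries, 1 point per mouse, with the mean and SD drawn beside the points. The groups overlap in all 10 panels, by 1 WT library for Pi16, Dpp4, Clec3b, Cd34 and Smoc2 and by 4 for Ly6a.

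Side by side, all 10 log2 fold changes were above 0, from 0.16 (Cd55 and Ly6a) to 0.71 (Pi16), with a median of 0.43, where the median of all 13360 genes was -0.01 and 46.4% of them were above 0. Non-overlapping ranges were found for 0 of 10 markers, where 0.24% of all genes tested were higher and 0.195% lower without overlap. In edgeR 0 of 10 passed an adjusted p of 0.05, as 0.0973% of all genes did upwards and 0.0299% downwards. At an unadjusted p under 0.05 there were 8 of 10, all but Cd55 and Ly6a, where 7.38% of all genes were in either direction and 3.84% upwards. In DESeq2 2 of 10 passed, Gsn and Smoc2 (0.284%), with 8 at an unadjusted p under 0.05 (4.29%), and in limma-voom with sample quality weights 0 of 10 passed (0.112%), with 7 at an unadjusted p under 0.05 (5.19%), without Pdgfra. The markers were chosen on this contrast, so nothing is read from these counts.

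**Figure D2:**
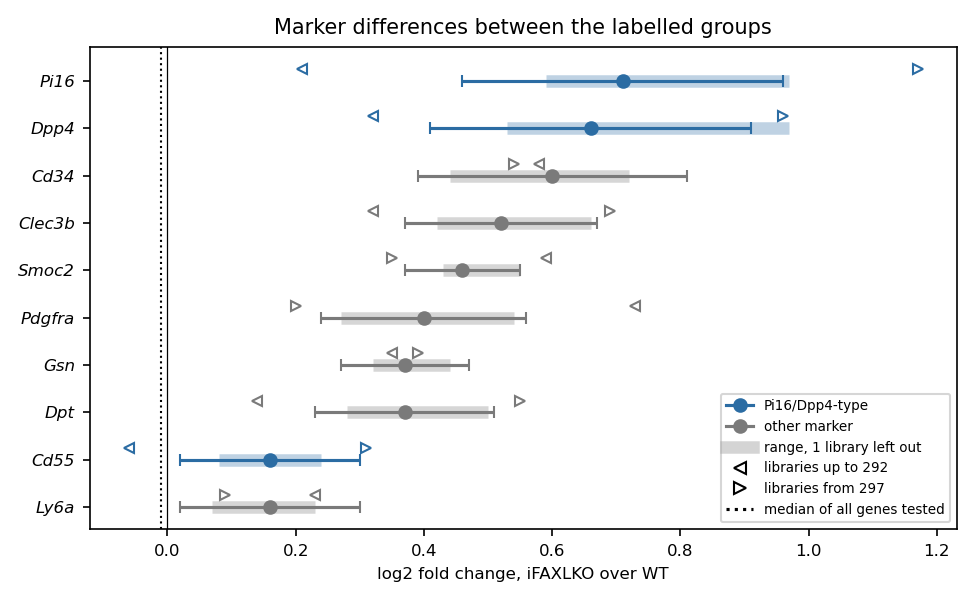
Log2 fold change of each marker, iFAXLKO-labelled over WT (horizontal axis), with its SE (whiskers), the range over the 13 fits that each leave out 1 library (shaded bar) and the differences of mean log2 CPM within the lower and upper ranges of library numbers (open triangles). A dotted line marks the median of all genes tested, -0.01. Pi16 and Dpp4 lie at the top with the widest errors, and Cd55, the other Pi16/Dpp4-type gene, lies with Ly6a at 0.16.

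Whether the Pi16/Dpp4-type markers differed more than the others was looked at within each library, as the mean log2 CPM of Pi16, Dpp4 and Cd55 minus that of the other 7 genes. This difference ran from -3.46 over -3.22 to -2.95 in the libraries labelled iFAXLKO and was at -2.86, -3.16, -3.72, -3.49 and -3.52 in WT. None of the libraries labelled iFAXLKO lay above the highest WT library, replicate 1, and the spread in WT was wide. The means were -3.22 ± 0.18 (SD, n = 8) and -3.35 ± 0.34 (SD, n = 5), so that the 2 kinds of marker shifted relative to each other by 0.13, less than the SD of either group. The shift was 0.35 with Pi16 and Dpp4 alone and Cd55 counted with the other markers. It was 0.02 with Ly6a and Clec3b added to the Pi16/Dpp4-type, 0.25 without WT replicate 1 and 0.04 without WT replicate 3. It was -0.26 in the lower and 0.41 in the upper range of library numbers, so the direction was not alike in both. The score of the other 7 markers, by contrast, differed between the groups by 0.42 and 0.40 in these ranges, and that of the Pi16/Dpp4-type by 0.16 and 0.81.

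How the markers varied between mice of the same group does not use the contrast by which they were chosen. With group means removed, 38 of the 45 pairs of markers had a positive correlation of log2 CPM over the 13 libraries, with a median Pearson's r of 0.38, given as a description since all genes share the libraries and their scaling. The strongest were Pi16 with Clec3b and Pi16 with Dpt, both at 0.88, followed by Dpt with Cd55 (0.77), Cd34 with Clec3b (0.75) and Clec3b with Dpt (0.75). Dpp4 was nearest to Cd55 (0.65) and Pi16 (0.49). Pi16 itself was at 0.64 with Cd55. The highest values of Pi16 were thus with 2 genes counted among the other markers, and whether they exceed those with Dpp4 and Cd55 was not tested.

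Pdgfra and Smoc2 stood apart from the rest. Pdgfra had a mean r of 0.14 with the other markers, with -0.02 for Pi16 and -0.10 for Dpt, and was closest to Cd34 (0.60) and Ly6a (0.43). Smoc2 had a mean r of 0.10 and was close only to Gsn (0.69), with -0.14 for Cd34, the lowest of all pairs. The median r was 0.64 among the 3 Pi16/Dpp4-type genes, 0.38 among the 7 others and 0.34 between the kinds.

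**Figure D3:**
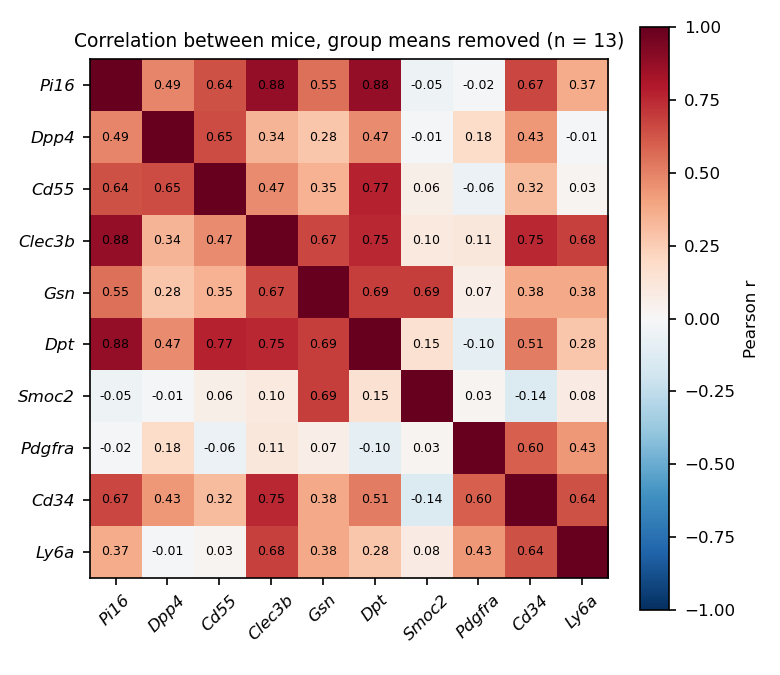
Pearson's r (colour scale and printed value, -1 to 1) of log2 CPM between each pair of markers over the 13 libraries, after the mean of each group was subtracted. The highest cells are Pi16 with Clec3b and with Dpt (0.88 each), and the row of Smoc2 is pale apart from Gsn (0.69), as is that of Pdgfra apart from Cd34 (0.60) and Ly6a (0.43).

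The mean log2 CPM of the 10 markers in a library, here called the marker score, was then set against Axl and 3 cell type scores, with group means removed (4 relations, permutation within groups, 2-sided, adjusted over the 4). It rose with Axl, with Pearson's r of 0.83 (permutation p 6e-05, adjusted 0.00024) and Spearman's rho of 0.86 (permutation p 0.00023, adjusted 0.00092) over 13 libraries. The r was 0.70 without WT replicate 4 and iFAXLKO replicate 7, the 2 libraries farthest out in Axl, 0.71 and 0.97 within the lower (n = 6) and upper (n = 7) ranges of library numbers, and 0.92 over the 8 libraries labelled iFAXLKO alone. Axl is known to be expressed by fibroblasts and macrophages as well as by other cells. In the libraries labelled iFAXLKO, replicate 7 held both the highest Axl (43.9 CPM) and the highest marker score (5.27), and replicate 6 both the lowest (26.5 CPM and 4.73). In WT these were replicate 4 (33.8 CPM and 4.76) and replicate 5 (23.5 CPM and 4.21).

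The marker score also rose with the score of the 7 macrophage markers, with r of 0.74 (permutation p 0.00162, adjusted 0.00324) and rho of 0.74 (permutation p 0.00427, adjusted 0.00854). The r was 0.58 without iFAXLKO replicates 6 and 7, and 0.92 and 0.84 within the ranges of library numbers. For the 8 brown adipocyte markers r was -0.32 (permutation p 0.258, adjusted 0.282). The rho was -0.26 (permutation p 0.388, adjusted 0.517). The r was -0.27 without iFAXLKO replicates 2 and 3, and -0.80 and -0.30 within the ranges. For the 8 skeletal muscle markers r was 0.34 (permutation p 0.282, adjusted 0.282). The rho was 0.13 (permutation p 0.672, adjusted 0.672). The r turned to -0.15 without WT replicate 5 and iFAXLKO replicate 8, the libraries with the least muscle transcript, and was -0.37 and 0.32 within the ranges.

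**Figure D4:**
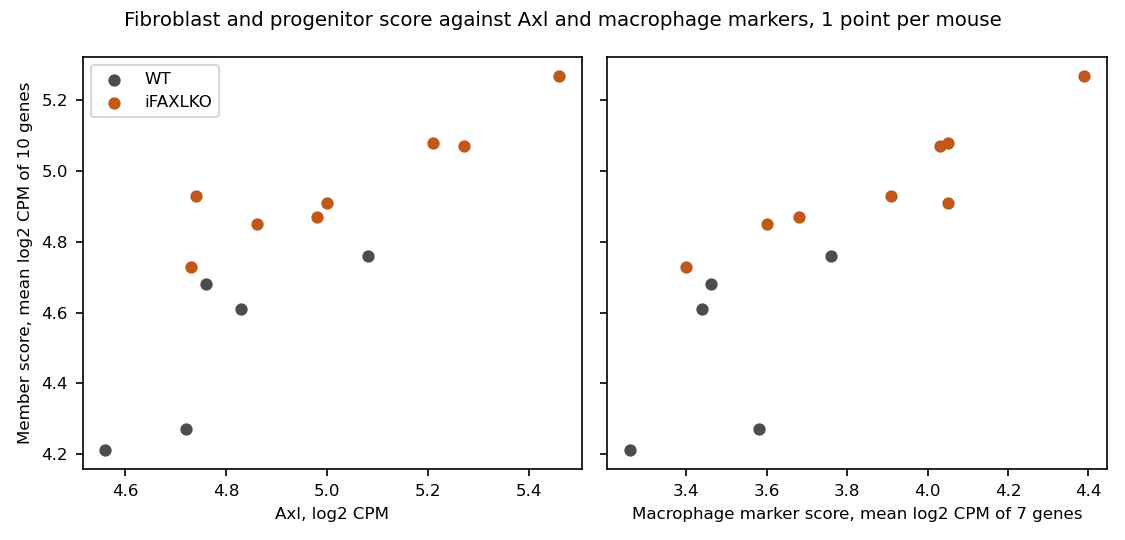
Marker score, the mean log2 CPM of the 10 genes (vertical axis), against log2 CPM of Axl (left) and the mean log2 CPM of 7 macrophage markers (right), 1 point per mouse, coloured by label. Within each group most points climb from left to right, with iFAXLKO replicate 7 at the top right of both plots. In the right plot WT replicate 3 departs from this, with a macrophage score of 3.58 and a marker score of 4.27. The marker scores run from 4.21 to 4.76 in WT and from 4.73 to 5.27 in iFAXLKO.

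Among the other 13350 genes tested, those whose variation between mice was most like the marker score (Pearson's r over 13 libraries, group means removed) were Adcy5 (0.91), Csf1r and Timp2 (0.90 each), Folr2 (0.89), Antxr1 and Serping1 (0.88 each), Nrm and Thy1 (0.87 each), and Clu and Fxyd5 (0.86 each). Csf1r is the receptor that macrophages need for survival and Folr2 a folate receptor of resident macrophages. Timp2 is an inhibitor of matrix proteases, Thy1 a surface antigen of fibroblasts, Antxr1 an anthrax toxin receptor that binds matrix and Serping1 the inhibitor of complement component C1. Thus genes of macrophages and of stromal cells were both among the 10. The lowest values belonged to Fam168b and Paxip1 (-0.80 each) and Thap2, Clcn7 and Tdg (-0.79 each).

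Related genes that are not among the 10 were drawn from 5 lists with 43 genes, of which 38 passed the filter on low values. Of these lists, that of the PDGF ligands and PDGFRB also holds genes of other cells. The lists were chosen with earlier results of these data known, so the counts below are a description. In edgeR 0 of the 38 passed an adjusted p of 0.05 over all genes in either direction, where 0.127% of all genes did, and 11 were higher at an unadjusted p under 0.05 (3.84%) with 0 lower (3.54%). DESeq2 called 2, Lum and Dcn (0.501% of all genes in either direction), and limma-voom with sample quality weights 0. Of the 38 genes 35 had a positive log2 fold change and the median was 0.27, beside -0.01 over all genes tested.

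The 14 genes shared by fibroblasts had the highest median of these lists, 0.46 over 12 genes tested, with 11 above 0. Lum and Dcn, small leucine-rich proteoglycans that bind collagen fibrils, had the smallest p. Lum was at 25.8 ± 5.27 CPM (SD, n = 8) in the libraries labelled iFAXLKO and 15.6 ± 3.41 CPM (SD, n = 5) in WT, with a log2 fold change of 0.72 (SE 0.15, edgeR adjusted p 0.122, 0.00174 to 0.47 over the alternatives). Dcn was at 116 ± 13 and 87.0 ± 8.12 CPM, with 0.41 (SE 0.09, edgeR adjusted p 0.163, 0.00313 to 0.622 over the alternatives). The WT mean was below all 8 libraries labelled iFAXLKO for both, and also for Fap, the fibroblast activation protein and the closest relative of DPP4 as a protease, which had 0.56 (SE 0.16, edgeR adjusted p 0.407). Tcf21, a transcription factor of white fat progenitors, had 0 counts in every library, and Twist2 had -0.05 (SE 0.19).

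The interstitial progenitor list, genes described with the Pi16/Dpp4-type cell, had a median of 0.31 over 9 of 12 genes tested, with 8 above 0. Its smallest p belonged to Mfap5, a protein of microfibrils (log2 fold change 0.77, SE 0.25, edgeR adjusted p 0.49), Dact2, a modulator of WNT signalling (0.72, SE 0.24, edgeR adjusted p 0.49), and Emilin2, an elastin-associated glycoprotein (0.44, SE 0.24, edgeR adjusted p 0.717). Anxa3 (0.06, SE 0.12) and Ackr3 (-0.04, SE 0.13), from the same list, were near 0. Wnt2, Tnfaip6 and Bmp7 were under the filter.

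Committed preadipocyte genes had a median of 0.17, with 7 of 7 above 0. Dlk1, the preadipocyte factor that holds back adipogenesis, had the largest value, 0.90 (SE 0.32, edgeR adjusted p 0.535), at 8.17 ± 2.82 CPM (SD, n = 8) against 4.41 ± 2.37 CPM (SD, n = 5). Col5a3 had 0.42 (SE 0.18, edgeR adjusted p 0.628) and Icam1, the adhesion molecule that marks these cells, 0.38 (SE 0.23, edgeR adjusted p 0.752). The transcription factors Zfp423 and Ebf2 had 0.05 (SE 0.20) and 0.17 (SE 0.16). For the regulatory stromal cells that hold back adipogenesis, the median over 5 of 5 genes was also 0.17, with 4 above 0. Gdf10 was at 0.37 (SE 0.19, edgeR adjusted p 0.709), Clec11a at 0.20 (SE 0.18, edgeR adjusted p 0.872) and Fmo2 at 0.17 (SE 0.20). F3, the surface marker of these cells, was at 0.02 (SE 0.17) and Meox2 at -0.11 (SE 0.14).

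For the ligands of PDGFRA and the sister receptor, 5 of 5 genes were above 0 with a median of 0.18. Pdgfrb, which marks pericytes and fibroblasts, had 0.18 (SE 0.09, edgeR adjusted p 0.687), the ligand Pdgfa 0.23 (SE 0.17, edgeR adjusted p 0.831) and Pdgfc 0.22 (SE 0.17, edgeR adjusted p 0.84). Pdgfb, made mainly by endothelium, had 0.18 (SE 0.16) and Pdgfd 0.02 (SE 0.13).

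The marker lists of other cells gave the following values beside these. All 7 macrophage markers were above 0, with a median of 0.39. Past the adjusted limit were 0 of 7 in edgeR (0.0973% of all genes upwards) and in DESeq2 (0.284%). At an unadjusted p under 0.05 in edgeR 6 were higher, where 3.84% of all genes were. Their sum was 86.1 to 169 CPM in the libraries labelled iFAXLKO and 74.2 to 106 CPM in WT, none was at 0, and C1qa, a complement subunit made by macrophages, had 0.44 (SE 0.16, edgeR adjusted p 0.537). All 8 pericyte and smooth muscle markers were above 0 with a median of 0.16, and of the 4 Schwann cell markers 4 were above 0 with a median of 0.06. Of the former 0 and of the latter 1 were higher at an unadjusted p under 0.05. Of the brown adipocyte markers 1 of 8 was above 0 and the median was -0.16. Their sum was 7370 to 11300 CPM in the libraries labelled iFAXLKO and 9270 to 13900 CPM in WT. At an unadjusted p under 0.05 in edgeR 1 was lower, where 3.54% of all genes were. It was Elovl3, at 125 ± 45.3 CPM (SD, n = 8) against 202 ± 25.1 CPM (SD, n = 5). Its log2 fold change was -0.69 (SE 0.21, edgeR adjusted p 0.474). Of the 6 adipocyte markers 1 was above 0 and the median was -0.06. Of the 8 skeletal muscle markers 0 were above 0 with a median of -0.35, and the SE of single genes was 1.08 to 1.3. Mesothelial cells, which cover visceral fat, were barely seen: Wt1 was at 0 in every library and Msln and Upk3b were under the filter. The median of the other 2 was 0.55, from Krt19 at 0.84 (SE 0.98) and Lrrn4 at 0.26 (SE 0.25). The 5 markers summed to 2.87 to 13 and 3.40 to 7.69 CPM. The part of these cells in the level of the 10 markers was not tested.

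**Figure D5:**
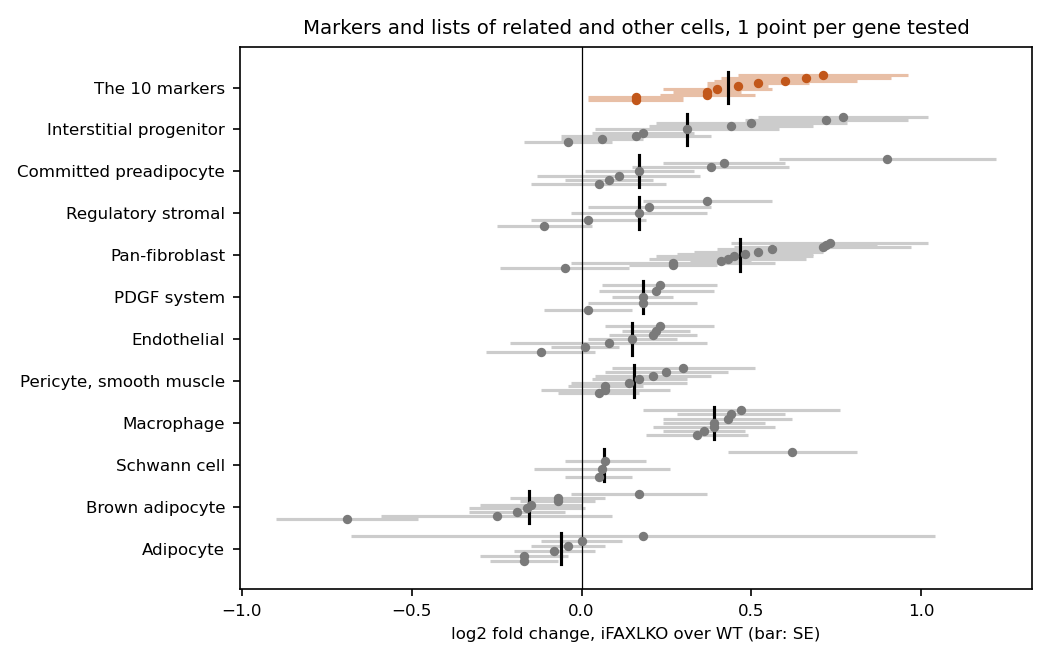
Log2 fold change, iFAXLKO-labelled over WT (horizontal axis), of the 10 markers (orange), the 5 related lists and 6 lists of other cells (grey), 1 point per gene tested with its SE and a black bar at the median of each list. The medians drawn run from 0.46 for the pan-fibroblast list over 0.43 for the 10 markers and 0.39 for macrophages to -0.16 for brown adipocytes.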

How the data were processed

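Bulk RNA libraries of iBAT were compared, 8 labelled iFAXLKO and 5 WT. Per the labels and values, the deposited tables give unnormalised counts for each Ensembl gene. The submitters' processing notes name bcl2fastq 2.20, fastp 0.20.0, STAR 2.7.4a and GRCm38.p6, whereas the methods of the study name Trim Galore and hisat2 on GRCm38. How reads were counted, and whether by strand, is not given in the sources used here. Antisense genes overlap 7 of the 10 markers (highest level 0.82 CPM). The labels give polyadenylated RNA and the methods depletion of ribosomal RNA. The deposited counts summed to 22437277 to 32595083 per library, and 3 counts are 0.092 to 0.1337 CPM. Such floors cover counting error only. Libraries of a group differed by a chi-square of at least 15.26 per degree of freedom, more than counting error alone gives. Each library came from 1 mouse and was taken as 1 replicate. P-values set a difference or relation against the spread between mice.

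Genes over 1 CPM in at least 5 libraries were kept (13360). TMM factors scaled the libraries, and the test was the quasi-likelihood F test of edgeR 4.0.16 (robust, 2-sided, Benjamini-Hochberg over all genes tested). SE is the log2 fold change divided by the square root of F. Log2 CPM used a prior count of 2. Scores are means of log2 CPM. Relations used 100000 permutations within groups, and neighbours in level exact sign flips. Exon lengths came from GENCODE M21 (GRCm38), and 42263 of 42416 identifiers had a symbol. Alternatives were DESeq2 1.42.0, limma 3.58.1 (voom), RLE and upper quartile factors, other library sizes and filters, non-robust dispersion, covariates (library number range, muscle score), the replicate number as a block and each library left out. Of the fits only the main edgeR fit was tested on simulated data, with changes larger than those of the markers. The text names all 10 members, Axl, the 3 genes of each related list with the smallest p, up to 2 genes of a cell type list, the 10 genes most and 5 least like the marker score, and the paralogs that may share reads. Other list genes named (Anxa3, Ackr3, Zfp423, Ebf2, Twist2, Tcf21, F3, Meox2, Pdgfb, Pdgfd, Ucp1 and genes under the filter) were chosen after their values were seen. The members and lists were chosen with earlier results of these data known.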

Additional observations from a re-analysis of the deposited data

Results flagged for a closer look

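In 5 of 52 groups of values checked, 1 library lay far from the others of its group, where chance alone gives about 1 in 20. The groups share the same libraries and are not independent, so whether 5 of 52 exceeds this was not tested. Of the markers, Cd34 was at 61.2 CPM in iFAXLKO replicate 7, where the other libraries with that label held 26.2 to 41.0 CPM. Clec3b was at 35.7 CPM in the same library, with 22.8 to 27.5 CPM in the others. The remaining 3 concern lists of other cells. The lymphocyte markers summed to 15.9 CPM in WT replicate 1 (0.956 to 1.80 CPM in the other WT libraries) and to 5.7 CPM in iFAXLKO replicate 3 (1.41 to 2.93 CPM in the others). The brown adipocyte markers summed to 13900 CPM in WT replicate 2 (9270 to 10400 CPM in the others).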

How the results depend on the processing

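The median log2 fold change of the 10 markers stayed between 0.40 and 0.54 when 1 library was left out and between 0.42 and 0.47 under the other alternatives, and each marker stayed above 0 in all 24 refits. The number of genes called over all genes moved from 17 to 67 under DESeq2 and lay between 14 and 19 with any 1 library left out. Of the related fibroblast and progenitor genes, 0 were called, with 2 under DESeq2 (Lum and Dcn) and 0 to 1 when 1 library was left out, the 1 being Lum without WT replicate 4. Of the 9 neighbouring pairs of levels, 9 differed over 13 libraries, 8 with the longest transcript and 0 in the WT libraries alone, where the test cannot pass. The shift of the Pi16/Dpp4-type against the other markers (0.13) lay between 0.04 and 0.25 with any 1 library left out. The relation of the marker score to Axl (r 0.77 to 0.89) and to macrophages (0.65 to 0.85) kept its adjusted p under 0.05 in all 15 alternatives (highest adjusted permutation p 0.00508 and 0.025). The labels do not say that a replicate number marks a shared litter, batch or day, so no pairing was assumed. The deviations of libraries with the same number correlated at 0.39, 0.42, 0.19 and 0.18 for numbers 1 to 4 and at -0.61 for number 5, and 3 of 5 WT libraries were most like their own number. With the replicate number as a block 7 genes were called, all among the 17, the median of the markers was 0.47, Axl had 0.25, and the shift of the Pi16/Dpp4-type was 0.09. The causes of these moves were not tested. Dpp4, at 0.759 to 2.55 CPM, had the fewest reads of the markers.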
